A study of Rattus norvegicus with 24 samples.

Results

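The genes described here are 6 subunits of the NADPH oxidases, Cybb, Cyba, Ncf1, Ncf4, Rac2 and Nox4, chosen by name among the 26641 loci that carry a gene name (42334 loci in all). Each name matched 1 locus. Messenger RNA was sequenced from cortex next to the lesion (perilesional cortex) and from thalamus of the injured side (ipsilateral thalamus) of adult male Sprague-Dawley rats, 3 months after lateral fluid-percussion injury of the left hemisphere (TBI) or after a sham operation. The libraries formed 4 groups of 6, a TBI and a sham group for each region. Both regions came from the same 12 rats. Sham-operated controls had the same surgical anaesthesia and surgery, craniectomy included, without the impact. The groups thus share the opened skull, and only the injured rats received the pressure pulse. Magnetic resonance imaging under isoflurane is likewise described for injured rats alone. The injured rats that were sequenced had been picked for raised signal around the lesion on magnetic resonance imaging. They stand for rats with chronic perilesional inflammation and not for all injured rats. The tissue was dissected whole, so each library mixes neurons, glia, vessels and any infiltrating blood cells.

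NADPH oxidases carry electrons from NADPH across a membrane and release superoxide. In the phagocyte enzyme, Cybb (gp91phox, NOX2) is the catalytic subunit and Cyba (p22phox) is its membrane partner, which also stabilises other NOX enzymes. Ncf1 (p47phox) is the cytosolic organiser, Ncf4 (p40phox) binds phosphoinositides of the phagosome membrane, and Rac2 is the small GTPase of blood cells that joins the assembled complex. Activation moves the cytosolic subunits to the membrane. In brain the phagocyte enzyme is known mainly from microglia and infiltrating myeloid cells, whereas Nox4 is a separate isoform that is active without the cytosolic subunits and is known from vessels, kidney and some neurons.

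Of the 6 genes, 4 were matched to upstream sequences from RefSeq (assembly GRCr8), and Ncf4 and Rac2 were not. The 250 bases before each annotated start are shown 5′ to 3′ on the gene's strand, because 3 of these genes changed together and Nox4 did not pass the minimum for a test. Capitals mark 3 short motifs searched on both strands. GAGGAA is the core of the site of PU.1, a factor of the myeloid lineage. GAAA repeated after 2 bases of any kind is the spacing known from interferon response elements, and GGGCGG is the GC box. No match overlapped another. The Ncf1 sequence is chr12:28121635-28121884 on the plus strand, the Cyba sequence chr19:67404215-67404464 on the minus strand, the Cybb sequence chrX:16065066-16065315 on the minus strand and the Nox4 sequence chr1:150313639-150313888 on the plus strand.
Ncf1: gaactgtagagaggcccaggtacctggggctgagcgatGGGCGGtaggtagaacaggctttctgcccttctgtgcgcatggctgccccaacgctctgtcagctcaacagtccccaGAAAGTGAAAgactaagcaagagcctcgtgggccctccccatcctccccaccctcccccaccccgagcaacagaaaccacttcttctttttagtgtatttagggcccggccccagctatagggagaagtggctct
Cyba: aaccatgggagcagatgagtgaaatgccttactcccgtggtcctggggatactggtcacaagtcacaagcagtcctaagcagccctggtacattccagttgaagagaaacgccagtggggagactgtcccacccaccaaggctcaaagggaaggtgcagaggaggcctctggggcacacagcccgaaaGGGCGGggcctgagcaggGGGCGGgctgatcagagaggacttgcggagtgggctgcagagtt
Cybb: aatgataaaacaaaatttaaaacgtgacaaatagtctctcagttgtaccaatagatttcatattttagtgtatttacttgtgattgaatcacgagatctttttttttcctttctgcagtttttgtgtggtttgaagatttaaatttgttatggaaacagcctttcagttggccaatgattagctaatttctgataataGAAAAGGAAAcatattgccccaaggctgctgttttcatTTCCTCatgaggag
Nox4: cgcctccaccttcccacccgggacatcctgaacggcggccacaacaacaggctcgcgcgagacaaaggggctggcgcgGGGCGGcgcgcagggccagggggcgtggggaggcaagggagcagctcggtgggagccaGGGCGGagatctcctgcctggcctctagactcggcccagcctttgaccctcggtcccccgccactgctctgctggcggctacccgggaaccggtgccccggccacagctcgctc
The letters of GAGGAA occurred in 1 of the 4, Cybb, on the opposite strand (TTCCTC) and 8 bases from the start. The interferon spacing occurred in Cybb, ending 42 bases from the start, and in Ncf1, 125 bases from the start. The GC box occurred once in Ncf1 (206 bases from the start) and at 2 places each in Cyba (56 and 38 bases) and Nox4 (166 and 108 bases). Among the 33469 rat promoters of the same length, 23.3% held GAGGAA, 3.41% held the interferon spacing and 30.5% held GGGCGG. These matches describe letters, and no binding was measured.

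The deposited value of a locus is its number of fragments after scaling by the size factor of the library, referred to as its normalized count. The worth of 1 fragment was recovered from the smallest step in each library and gave 30568927 to 54608922 fragments per library. Each test was made across all named loci with a mean of at least 10, by limma on log2(normalized count + 1), and a gene was called at a Benjamini-Hochberg adjusted p under 0.05. A log2 change of a low gene is understated on this scale. The counts are not divided by transcript length, so levels are compared between libraries and never between genes. The labelled regions were told apart by their markers: 6 thalamic markers summed to 46914 to 66852 in thalamus libraries and to at most 3490 in cortex libraries. Choroid plexus markers were uneven: their summed normalized count was over 10000 in 6 libraries, from rats 26, 34, 45 and 50, and reached 266223 in TBI thalamus (rat 45). The TBI comparisons are therefore also given without these 4 rats, which leaves 5 TBI and 3 sham rats.

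The 5 phagocyte oxidase subunits described here were all higher in TBI rats, in both regions. In each case every TBI library lay above every sham library. Over all loci tested by limma, 14.3% of 15493 were called higher and 14.9% lower in TBI cortex, and 14.5% of 15564 were called higher and 20.9% lower in TBI thalamus. TBI libraries lay wholly above the sham libraries for 7.02% of these loci (cortex) and 7.46% (thalamus), and wholly below them for 5.45% and 10.7%. Cybb, the catalytic subunit (chrX:15359335-15393805 as the files list the locus), had a lowest, median and highest normalized count of 183, 230 and 348 in TBI cortex and of 104, 138 and 163 in sham cortex. In the thalamus the 3 values were 156, 248 and 345 in TBI rats and 57.3, 80.1 and 133 in sham-operated rats. The groups did not overlap in either region, although the lowest TBI thalamus library stood only a little above the highest sham library. The change was a log2 difference of 0.80 ± 0.15 (SE, n = 6 rats per group) in the cortex, which is 1.75-fold (limma, Benjamini-Hochberg adjusted p = 0.00115), and 1.51 ± 0.23 in the thalamus, which is 2.84-fold (limma adjusted p = 0.00018). In bulk tissue a higher number of expressing cells and more RNA per cell cannot be told apart.

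Cyba, the membrane partner that anchors the cytosolic subunits, had a lowest, median and highest normalized count of 300.0, 388 and 515 in TBI cortex and of 147, 208 and 227 in sham cortex. In the thalamus they were 309, 421 and 531 in TBI rats and 151, 192 and 253 in sham-operated rats. The regions had nearly the same levels in both states, and neither pair of groups overlapped. The log2 difference was 0.99 ± 0.14 in the cortex (1.98-fold, limma adjusted p = 0.000159) and 1.08 ± 0.15 in the thalamus (2.11-fold, adjusted p = 9.34e-05). The listed span of the Cyba locus, chr19:65895325-65978333, is a joint span that the files also give to Zc3h18, Il17c and Mvd, so it does not delimit the Cyba gene.

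Ncf1, the organiser whose phosphorylation starts assembly, showed the highest fold change of the 5 in each region. Its normalized count had a lowest, median and highest value of 514, 788 and 847 in TBI cortex against 260, 288 and 335 in sham cortex. In the thalamus the values were 1441, 1664 and 1964 in TBI rats and 475, 541 and 571 in sham-operated rats. The lowest TBI thalamus library lay far above the highest sham library. The log2 difference was 1.28 ± 0.12 in the cortex (2.43-fold, limma adjusted p = 5.32e-06) and 1.68 ± 0.076 in the thalamus (3.20-fold, adjusted p = 1.04e-08). The locus lies at chr12:27505792-27514988.

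Ncf4, the phosphoinositide-binding subunit (chr7:119473858-119490871), was the lowest in count of the 5 and rested on 32 to 196 fragments per library. Its lowest, median and highest normalized counts were 60.8, 86.0 and 99.4 in TBI cortex and 34.4, 38.7 and 51.1 in sham cortex. In the thalamus they were 120, 129 and 172 in TBI rats and 32.6, 43.7 and 66.9 in sham-operated rats. Neither region showed overlap, and the sham levels of the regions were alike in range. The log2 difference was 0.99 ± 0.15 in the cortex (1.98-fold, limma adjusted p = 0.000251) and 1.57 ± 0.16 in the thalamus (2.97-fold, adjusted p = 8.33e-06).

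Rac2, the haematopoietic GTPase of the complex (chr7:119772953-119786171), changed least. Its lowest, median and highest normalized counts were 193, 238 and 274 in TBI cortex and 133, 138 and 156 in sham cortex. In the thalamus they were 308, 331 and 530 in TBI rats and 160, 174 and 229 in sham-operated rats. The sham cortex libraries were tight, and 1 library of each thalamus group stood well above the other 5. The log2 difference was 0.72 ± 0.093 in the cortex (1.65-fold, limma adjusted p = 8.09e-05) and 0.99 ± 0.13 in the thalamus (1.99-fold, adjusted p = 6.90e-05). Without the high TBI thalamus library (rat 63) the thalamus difference was 0.88, and without the high sham library (rat 34) it was 1.06.

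Nox4, the isoform that needs no cytosolic subunit (chr1:157106651-157285107), was near the limit of detection and under the minimum mean for the limma test. Over 6 libraries each, 1 fragment was counted in sham cortex and 9 in TBI cortex, while the thalamus held 18 in sham-operated and 21 in TBI rats. Single libraries held 0 to 4 fragments (median 1) in TBI cortex and 0 to 1 (median 0) in sham cortex, and in the thalamus 0 to 6 (median 3.5) in TBI and 0 to 7 (median 3) in sham-operated rats. Its normalized counts therefore ran from 0 to 6.68 over all libraries, and the TBI and sham groups overlapped in both regions. A count of 0 allows up to 3 fragments in a library, counting error only. With no minimum, TBI and sham did not differ past the threshold in the cortex (adjusted p from 0.128 by edgeR on the recovered fragments to 0.166 by limma) or in the thalamus (adjusted p from 0.919 by limma to 0.940 by edgeR).

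**Figure D1:**
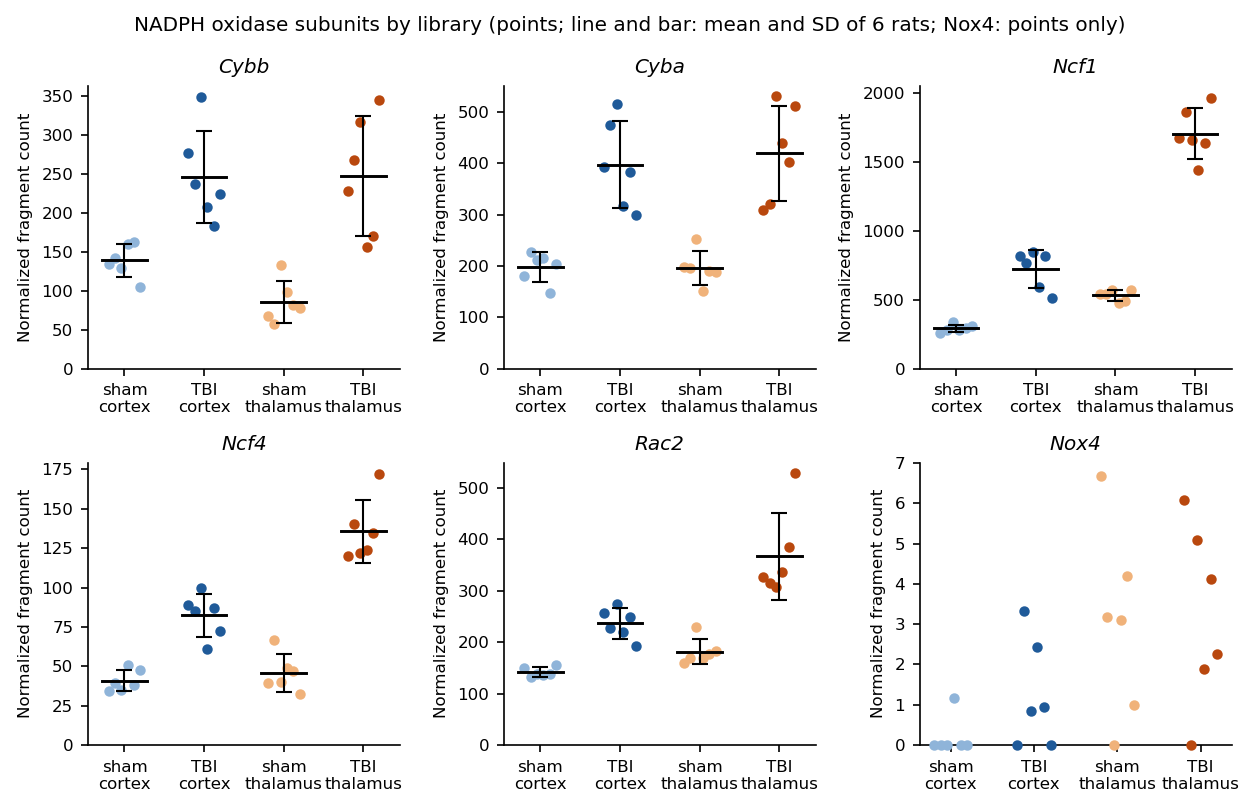
Normalized fragment count (vertical axis, from 0) of each subunit in the 24 libraries, in columns for sham cortex, TBI cortex, sham thalamus and TBI thalamus. Points are rats, and lines with bars are the mean and SD of 6 rats, left out for Nox4. For the 5 phagocyte subunits every TBI point lies above every sham point of its region, whereas Nox4 stays under 7 in all libraries.

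As a group, 5 of the 5 tested subunits were called higher and 0 lower in TBI cortex, and the same held in TBI thalamus, beside the shares of all loci given above. The median log2 change of the 5 was 0.99 in the cortex and 1.51 in the thalamus, against a median of -0.0096 and -0.023 over all loci tested. Ranked by log2 change among all loci, Ncf1 stood at place 168 and Rac2 at place 684 in the cortex, and Ncf1 at place 90 and Rac2 at place 411 in the thalamus, with the other 3 subunits between them. The scaling moved the balance of the calls over all loci: 50.9% of the called loci were lower in the cortex and 59.0% in the thalamus with the deposited scaling, and 30.1% and 40.0% with upper quartile scaling. The 5 subunits were called higher with either.

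Leaving out the 4 rats with choroid plexus transcripts kept all 5 subunits past the threshold in both regions. In the cortex the log2 differences were then 0.74 for Cybb, 0.77 for Cyba, 1.25 for Ncf1, 0.76 for Ncf4 and 0.68 for Rac2, with limma adjusted p from 0.000724 to 0.0221. In the thalamus they were 1.54, 1.13, 1.70, 1.51 and 1.09 in the same order. Without these rats 1501 loci were called in the cortex, against 4531 with them.

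**Figure D2:**
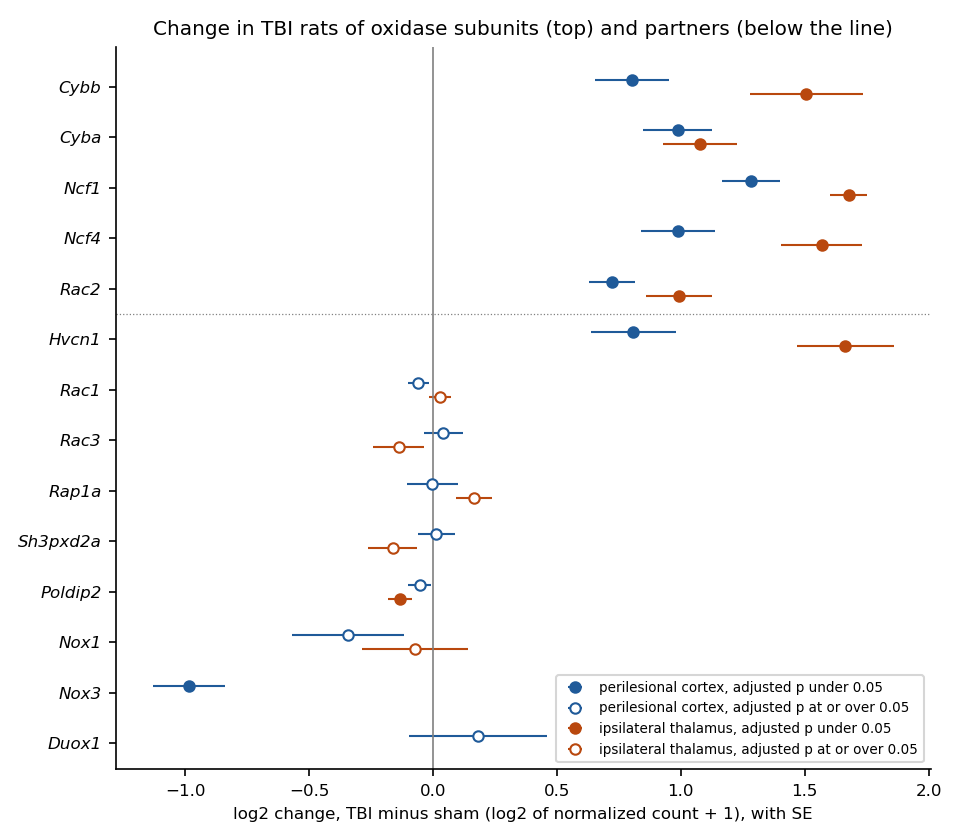
Log2 change in TBI against sham-operated rats with its standard error (horizontal axis, log2 of normalized count + 1) for 5 oxidase subunits above the dotted line and 9 related genes below it, in the perilesional cortex (blue) and the ipsilateral thalamus (orange). Filled points passed an adjusted p under 0.05. The 5 subunits and Hvcn1 lie to the right of 0 in both regions, while Rac1, Rac3, Rap1a and Sh3pxd2a lie close to 0.

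The rise was greater in the thalamus in the estimate for every one of the 5, but none of these differences between regions passed the threshold. The TBI change in the thalamus exceeded that in the cortex by 0.70 ± 0.29 for Cybb (limma interaction term, adjusted p = 0.138), 0.58 ± 0.22 for Ncf4 (adjusted p = 0.108) and 0.39 ± 0.15 for Ncf1 (adjusted p = 0.101). For Rac2 it was 0.27 ± 0.16 (limma, adjusted p = 0.347) and for Cyba 0.09 ± 0.21 (adjusted p = 0.849). Before adjustment Ncf1, Ncf4 and Cybb had p of 0.0124, 0.0138 and 0.0209 in limma. Thus 0 of 5 were called in either direction, where 2.72% of 15678 loci were called with a greater and 4.54% with a smaller value in the thalamus. The call for Ncf4 turned on 1 library: without the sham thalamus library of rat 32, the highest of its group, the difference was 0.70 and its limma adjusted p was 0.0376.

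The 5 subunits fell into different patterns over the regions themselves. In sham-operated rats Ncf1 was higher in the thalamus than in the cortex, by 0.86 ± 0.075 on the log2 scale, with no overlap (limma adjusted p = 7.25e-08). Rac2 was higher there by 0.34 ± 0.096, also with no overlap (limma adjusted p = 0.00555). Cybb went the other way, lower in sham thalamus by a log2 difference of -0.72 ± 0.18 (limma adjusted p = 0.00241), with 5 of 6 thalamus libraries under every cortex library. Ncf4 differed by 0.14 ± 0.18 and Cyba by -0.02 ± 0.13, neither past the threshold (limma adjusted p = 0.517 and 0.923). Of the 5, 2 were called higher and 1 lower in sham thalamus, beside 33.9% and 28.3% of 15582 loci, and the groups did not overlap for 23.9% of loci higher and 19.2% lower there. Nox4, under the minimum for limma, had 18 fragments in sham thalamus and 1 in sham cortex, and with no minimum this difference had an adjusted p of 0.00422 by edgeR on the recovered fragments and of 0.00619 by limma. The call for Rac2 did not hold without the 4 rats with choroid plexus transcripts, at 0.29 and a limma adjusted p of 0.105.

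In TBI rats 3 subunits stood higher in the thalamus than in the cortex, each with no overlap: Ncf1 by 1.25 ± 0.12 on the log2 scale (limma adjusted p = 5.33e-07), Ncf4 by 0.72 ± 0.14 (adjusted p = 0.000372) and Rac2 by 0.61 ± 0.13 (adjusted p = 0.00113). Cyba differed by 0.08 ± 0.16 and Cybb by -0.02 ± 0.20 (limma adjusted p = 0.718 and 0.942). Here 3 of 5 were called higher and 0 lower, beside 31% and 26.5% of 15737 loci, with no overlap for 19.5% of loci higher and 16.5% lower. The order of the 4 groups was thus TBI thalamus, TBI cortex, sham thalamus and sham cortex for Ncf1, Ncf4 and Rac2, and the ranges of TBI cortex and sham thalamus overlapped for all 3, as did the sham ranges of Ncf4. For Cyba the TBI groups were level above level sham groups. For Cybb the TBI groups were level too, and sham thalamus stood under sham cortex. Nox4 had 21 fragments in TBI thalamus and 9 in TBI cortex. With no minimum this difference did not pass the threshold (adjusted p from 0.162 to 0.168 over limma and edgeR on the recovered fragments).

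Microglial markers rose together with the oxidase subunits. The list held 14 markers, among them Aif1, Csf1r, Tmem119, Trem2 and the complement genes C1qa, C1qb and C1qc. By limma 12 were called higher in TBI cortex and 14 in TBI thalamus, beside 14.3% and 14.5% of all loci. The median log2 change of the markers was 0.63 and 0.98. Their summed normalized count ran from 26416 to 29764 in TBI cortex and from 19122 to 20081 in sham cortex, and from 40541 to 52384 in TBI thalamus and from 20328 to 26299 in sham thalamus. Between regions, 9 of the 14 were called higher in sham thalamus and 13 in TBI thalamus, with 0 lower in either. The shares of all loci called higher were 33.9% and 31%. For the interaction 8 of the 14 had a greater called change in the thalamus, beside 2.72% of all loci. The median interaction was 0.42 for the markers and 0.39 for the 5 subunits. To set each subunit beside these cells, the mean log2 value of the 14 markers was subtracted from the log2 value of the subunit in the same library. The groups were then compared by an exact two-sided permutation test over the 6 and 6 rats, where the smallest p possible is 0.00216, with Benjamini-Hochberg adjustment over 10 tests.

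Relative to these markers Ncf1 and Ncf4 were higher in TBI rats in both regions, and Cyba was higher in the cortex. For Ncf1 the value was higher in TBI by 0.72 in the cortex and by 0.71 in the thalamus, with 6 of 6 TBI rats above every sham rat in each (exact permutation test, adjusted p = 0.00722 for both). For Ncf4 it was higher by 0.42 in the cortex, with 4 of 6 rats above every sham rat (exact permutation test, adjusted p = 0.0216), and by 0.60 in the thalamus, with 6 of 6 (adjusted p = 0.00722). Cyba was higher by 0.42 in the cortex (5 of 6 rats, exact permutation test, adjusted p = 0.0162) and differed by 0.11 in the thalamus (adjusted p = 0.483). Cybb differed by 0.24 and 0.54 and Rac2 by 0.16 and 0.023 in cortex and thalamus, none past the threshold (exact permutation test, adjusted p = 0.225, 0.108, 0.0974 and 0.846). With the median of the markers in place of their mean, Cybb passed in the cortex (0.42, exact permutation test, adjusted p = 0.0253) and in the thalamus (0.63, adjusted p = 0.0487), and Rac2 passed in the cortex (0.34, adjusted p = 0.0278). Rac2 also passed in the cortex without the TBI library of rat 63 (0.20, exact permutation test, adjusted p = 0.0253), and in the thalamus it was -0.04 without the library of that rat.

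**Figure D3:**
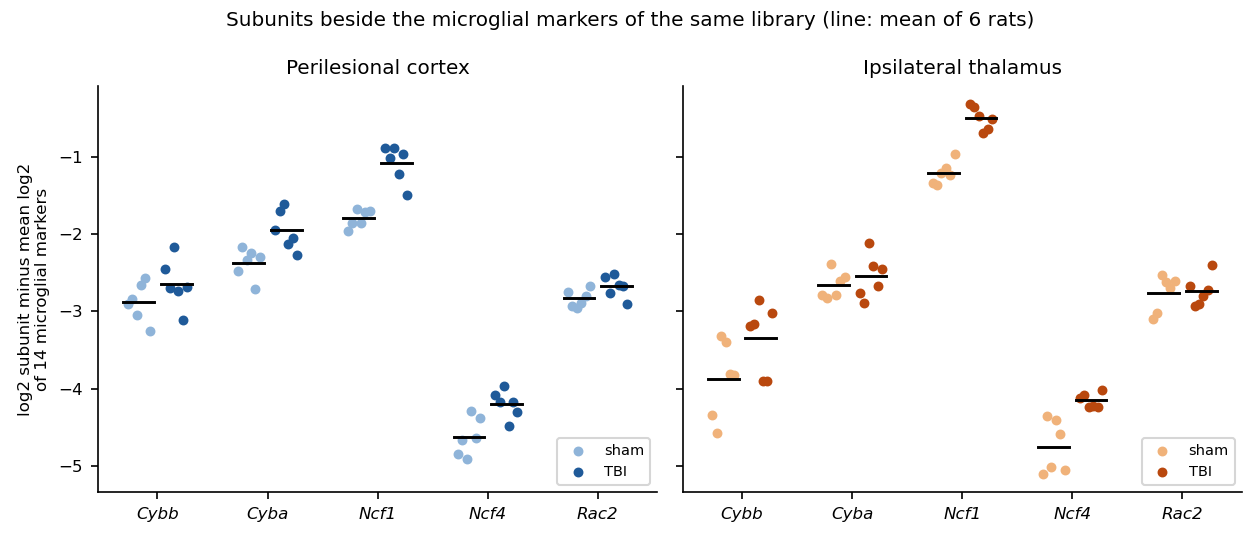
Log2 value of each subunit minus the mean log2 value of 14 microglial markers in the same library (vertical axis), for sham-operated (light) and TBI (dark) rats in the perilesional cortex and the ipsilateral thalamus. Points are rats and lines the means of 6 rats. For Ncf1 the TBI points lie above all sham points in both regions, while for Rac2 in the thalamus they share 1 range.

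Markers of other cells that could hold these subunits were mixed. Of 10 neutrophil markers 3 could be tested in the cortex and 4 in the thalamus, and 1 in each was called higher by limma, Csf3r, the receptor for granulocyte colony-stimulating factor, which microglia also express. The granule genes Elane and Ltf were at or under 3 fragments in every TBI library, and Elane in every sham library too. Other genes of this list were not all so low. Prtn3 had group means of 8.83 (sham cortex), 14.7 (TBI cortex), 17.7 (sham thalamus) and 11.5 (TBI thalamus). By the same order of groups, Camp had 8.03, 9.59, 19.2 and 16.4, and Mpo 0.143, 1.86, 5.39 and 7.05. The summed neutrophil markers, mostly Csf3r (group means 158 in sham and 267 in TBI cortex, 196 in sham and 486 in TBI thalamus), ran from 160 to 230 in sham and 245 to 401 in TBI cortex, and from 204 to 330 in sham and 393 to 659 in TBI thalamus. Of 8 markers of monocytes and perivascular macrophages, 3 of 7 tested were higher in the cortex (Mrc1, Cd14 and F13a1) and 1 of 6 in the thalamus (Cd14), and their sums overlapped between TBI and sham in both regions. Over all loci 14.3% were called higher in the cortex and 14.5% in the thalamus. In lists this short, a call of 1 gene is not far from that share. The 3 of 7 monocyte and macrophage markers in the cortex stood above it. All 7 were higher there in the mean, with a median log2 change of 0.63. The part of these cells in the subunit values was not tested.

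Among 8 T cell markers Cd4, which myeloid cells of the rat also express, was called higher in both regions and made up most of their summed count, with group means of 789 in sham and 1359 in TBI cortex and of 862 in sham and 2983 in TBI thalamus. Cd8b passed the minimum in the thalamus through the TBI group alone, with means of 0.165 in sham and 20.7 in TBI rats. In the thalamus Cd3e, Cd3d, Cd3g and Cd2 were not tested and had means of 1.90 to 5.50 in both groups. In the cortex Cd3e, Cd8a and Cd2 were tested and did not pass the threshold. Cd8b, Cd3g, Cd3d and Cd5 were under the minimum there. Their means were 10.8, 7.33, 4.84 and 0.158 in TBI and 0.924, 3.51, 3.47 and 0.387 in sham cortex. For Cd8b 5 of 6 TBI cortex libraries lay above every sham library, and for Cd3g 4 of 6. None of 5 B cell markers reached the minimum for a test, and their sums stayed between 1.98 and 25.0 in all libraries. Neuronal markers were called lower for 8 of 10 genes in each region, with sums of 292314 to 382595 in TBI and 411775 to 446504 in sham cortex, and of 211429 to 268503 in TBI and 309866 to 361409 in sham thalamus. Astrocyte markers were called higher for 5 of 8 genes in each region, with Gfap at 4.78-fold in the cortex and 4.79-fold in the thalamus. The list was split in the cortex, where 2 of the 8, Slc1a2 and Aldoc, were called lower, each at a log2 change of -0.21. In the thalamus 0 were called lower. The astrocyte sums were 406177 to 450670 in TBI and 373189 to 394158 in sham cortex, and 403326 to 464172 in TBI and 283329 to 315506 in sham thalamus. Of 6 mural cell markers tested, 3 were called higher in the cortex and 5 in the thalamus, and of 8 endothelial markers 2 and 4. Beside these counts, 14.3% of all loci were called higher and 14.9% lower in TBI cortex, and 14.5% and 20.9% in TBI thalamus. The 2 endothelial calls in the cortex were not far from the share called higher. The part of these cell types in the subunit values was not tested either.

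Within the complex, Ncf1 rose more than Rac2 in both regions and more than Cyba in the thalamus. For each pair of the 5 subunits the log2 ratio was compared between TBI and sham-operated rats in each region, which gave 20 exact permutation tests with 3 past the threshold. These pairs were set up after the values had been seen. The ratio of Ncf1 to Rac2 was higher in TBI rats by 0.56 in the cortex and by 0.68 in the thalamus, in both with 6 of 6 TBI rats above every sham rat (exact permutation test, adjusted p = 0.0216 for both). The ratio of Ncf1 to Cyba was higher by 0.60 in the thalamus, in 5 of 6 rats (exact permutation test, adjusted p = 0.0289), and by 0.30 in the cortex (adjusted p = 0.111). The ratio of Cyba to Cybb, which pair in the membrane core, differed by 0.18 in the cortex and -0.43 in the thalamus (exact permutation test, adjusted p = 0.541 and 0.209).

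Single TBI rats held the extreme values of several subunits at once. In TBI cortex rat 45 had the highest normalized count of all 5 tested subunits, 348 for Cybb, 515 for Cyba, 847 for Ncf1, 99.4 for Ncf4 and 274 for Rac2. Rat 63 had the lowest cortex value of Cyba, Ncf1 and Rac2. In TBI thalamus the same rat 63 had the highest value of Cybb, Ncf1, Ncf4 and Rac2, while rat 45 held the highest Cyba and the lowest Rac2. Among sham-operated rats, rat 34 had the highest thalamus value of Cybb, Cyba, Ncf1 and Rac2, and rats 34 and 45 were among those with choroid plexus transcripts. Among the 5 tested subunits the coefficient of variation in a group was lowest for Rac2 in sham cortex, at 6.34%, and highest for Cybb in sham thalamus, at 31.3%.

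**Figure D4:**
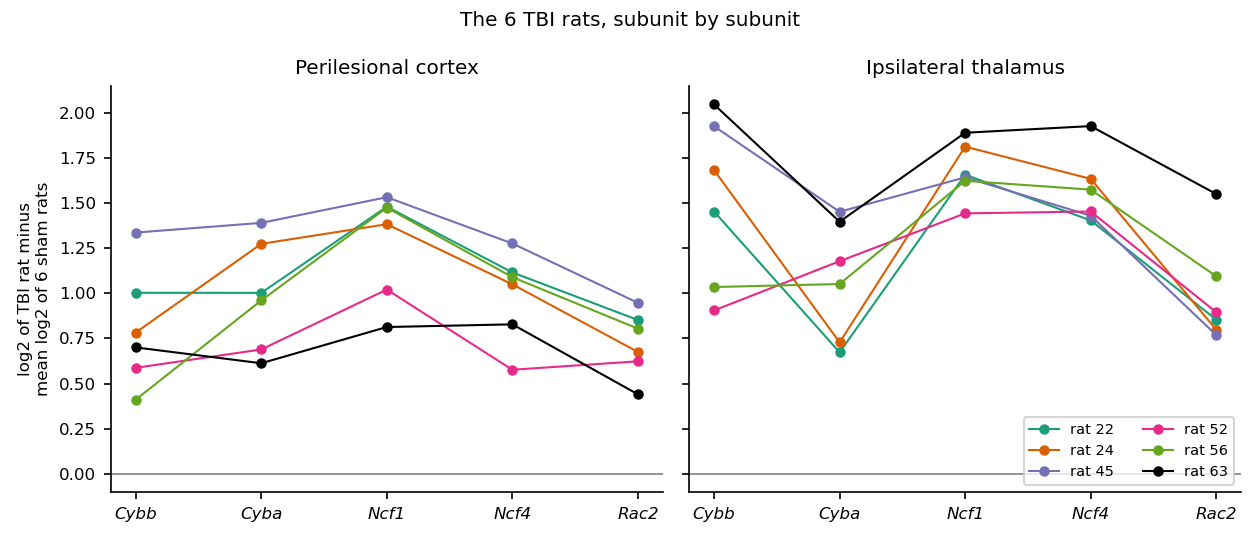
Log2 value of each of 5 subunits in each TBI rat minus the mean log2 value of the 6 sham-operated rats of the same region (vertical axis), with the perilesional cortex on the left and the ipsilateral thalamus on the right. Each coloured line is 1 rat and the grey line at 0 is the sham mean. Rat 45 runs at the top in the cortex and rat 63 at the bottom there for Cyba, Ncf1 and Rac2, and rat 63 runs at the top in the thalamus for all but Cyba.

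Of the other oxidase genes, Hvcn1, the voltage-gated proton channel that balances the charge moved by the oxidase, was also higher in both regions. Its mean normalized count was 46.4 ± 8.53 (SD, n = 6) in sham cortex and 83.0 ± 21.0 in TBI cortex, and 45.2 ± 10.1 in sham thalamus and 146 ± 35.3 in TBI thalamus. Neither pair of groups overlapped. The log2 change was 0.81 ± 0.17 (SE) in the cortex and 1.66 ± 0.19 in the thalamus (limma adjusted p = 0.00302 and 2.21e-05). The change of Hvcn1 differed between the regions, by 0.86 ± 0.26 (limma interaction term, adjusted p = 0.049).

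Among the other partners 1 gene was lower in each region. Of the 16 genes described, 9 could be tested in the cortex and 7 in the thalamus, with 1 higher (Hvcn1) and 1 lower in each, and a median log2 change of -0.0032 and -0.073. Over all loci the shares called were 14.3% (higher) and 14.9% (lower) for TBI cortex, with 14.5% and 20.9% for TBI thalamus. With so few genes tested, 1 call in a direction is not far from these shares. The lower gene was Nox3, the isoform known from the inner ear, in the cortex, with 75.0 ± 11.9 (SD) in TBI and 150 ± 28.3 in sham-operated rats (log2 difference -0.99, limma adjusted p = 0.000215). In the thalamus it was Poldip2, a partner of Nox4 (log2 difference -0.13, limma adjusted p = 0.0466). Nox3 had 2 loci under its name, of which the higher was used, and its thalamus counts were at most 9.78. Rac1, the GTPase found in all cells that can take the place of Rac2, differed by -0.06 in the cortex and by 0.03 in the thalamus (limma adjusted p = 0.311 and 0.675), and Rac3 by 0.04 and -0.14 (adjusted p = 0.722 and 0.327).

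Rap1a, a GTPase that copurifies with the membrane core, differed by -0.003 in the cortex and 0.17 in the thalamus (limma adjusted p = 0.986 and 0.0872). The organiser homologue Sh3pxd2a differed by 0.01 and -0.16 (limma adjusted p = 0.913 and 0.217), Nox1 by -0.34 and -0.07 (adjusted p = 0.271 and 0.824) and Duox1, tested in the cortex alone, by 0.18 (adjusted p = 0.654). Noxo1, Noxa1, Duox2, Duoxa1 and Duoxa2, the organiser, activator and maturation factors of other isoforms and a second dual oxidase, were under the minimum in both regions, with group means of at most 10.2. No locus carried the names Cybc1 or Sh3pxd2b.

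Of 21 signalling genes known to act upstream of the phagocyte oxidase, all tested, 9 were called higher and 4 lower in TBI cortex by limma, beside 14.3% and 14.9% of all loci. In TBI thalamus 13 were higher and 4 lower, beside 14.5% and 20.9%. The lower calls were near the share over all loci in both regions. The list had a median log2 change of 0.20 in the cortex and 0.39 in the thalamus. The 3 with the greatest change in the cortex were Vav1, an exchange factor for Rac (0.94), Itgb2, the beta chain of the leukocyte integrins (0.90), and the Src-family kinase Fgr (0.84). In the thalamus the same 3 led, with 1.67 for Itgb2, 1.51 for Fgr and 1.26 for Vav1. All of these had a limma adjusted p of 0.00165 or lower and no overlap between groups. The lower genes were Tiam1, Prkca, Prkcb and Pak1 in the cortex and Tiam1, Prkcb, Prkcd and Pak1 in the thalamus, kinases and an exchange factor that neurons also express, and were named after their values were seen. Itgam is a member of both this list and the microglial list.

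The genes that remove superoxide and peroxide changed by far smaller amounts. Of 13, 11 had a locus and were tested, with 4 higher and 2 lower in TBI cortex (14.3% and 14.9% of all loci) and 3 higher and 4 lower in TBI thalamus (14.5% and 20.9% of all loci), and a median log2 change of 0.04 and -0.09. Gpx1, a glutathione peroxidase, rose by 0.41 in the cortex (limma adjusted p = 0.000662). The peroxiredoxins Prdx4 and Prdx1 rose by 0.27 and 0.24 there (limma adjusted p = 0.0191 and 0.00179). In the thalamus Prdx1 rose by 0.35 and Prdx4 by 0.30, while Prdx5 differed by -0.33 (limma adjusted p = 0.000346, 0.0252 and 0.00144). The mitochondrial dismutase Sod2 was lower in both regions, at -0.24 and -0.25 (limma adjusted p = 0.00963 and 0.00043), and was likewise named after its values were seen.

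For each subunit the named loci with the most similar pattern over the 4 groups were found by the root mean square difference of the 4 group means on the log2 scale, each gene centred on its own mean. Loci similar to Ncf4 were that of Cd300a, at a difference of 0.068, and one labelled Mir146a, at 0.071. The Mir146a locus is counted here from polyadenylated RNA and is not the mature microRNA. Rac2 was most like Grn (0.014), Ly86 (0.014) and C1qa (0.018), the last a complement gene of the microglial list. Cyba was most like Ms4a6bl (0.030), Lgals3bp (0.031) and Lrrc25 (0.047), Cybb most like Plin4 (0.030), Apobec1 (0.060) and Rad21l1 (0.076), and Ncf1 most like Scnn1a (0.096), Pla2g7 (0.12) and Lcn2 (0.13). For Nox4, whose pattern rests on few fragments, the rule gave Wdr65, Fsip1 and Bcl2l15. Likeness over 4 means describes these groups and was not tested.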

How the data were processed

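Per the labels and the methods, the authors aligned stranded, polyadenylated RNA libraries with TopHat2 2.0.11 and Bowtie2 2.2.2, assembled transcripts with Cufflinks 2.2.1 and scaled counts with Cuffdiff. The labels name Rnor_5.0, while the methods name an older assembly for the alignment and Rnor_5.0 for the annotation, and locus positions are as listed. The deposited signal values are normalized fragment counts per locus. At least 99.97% of values per library lay within 0.1 of whole fragments, and fragments were recovered from the smallest step. Loci without a name (37.1%, with 1.90% to 2.23% of counts) were left out. TBI and sham were compared with limma 3.58.1 in R 4.3.3 (lmFit, eBayes with a mean trend, pseudocount 1, mean of at least 10, Benjamini-Hochberg over all loci, threshold 0.05), regions likewise, and their difference as an interaction without a block. The rat pairs the regions: deviations of its libraries correlated with a median of 0.187 (0.00393 to 0.569, 10 of 12 rats over 0.1). Single values used exact permutation tests. Named genes are the members, the measured oxidase partners, the 3 greatest called changes of each other pathway list and the 3 most similar loci of each member, except 1 gene that is not reported here. The members and lists were chosen with earlier results of these data known. The alternatives were other pseudocounts, filters, scalings, limma-voom, all 24 libraries in 1 fit, the rat as block and leaving out each library. edgeR 4.0.16 on the recovered fragments and leaving out 4 rats were added after seeing the data. The fits were tested on simulated data. Python 3.11.15, pandas 2.3.3 and matplotlib 3.10.9 were used.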

Additional observations from a re-analysis of the deposited data

Results flagged for a closer look

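Of the 24 groups of 6 libraries checked (6 genes in 4 groups), 3 held a library far from the other 5, and chance gives about 1 in 20. Rac2 reached a normalized count of 530 in the TBI thalamus library of rat 63, where the next library had 386. In sham thalamus Rac2 reached 229 in rat 34, where the next had 182. Nox4 was at 1.16 in the sham cortex library of rat 38, which is 1 fragment, and at 0 in the other 5.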

How the results depend on the processing

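The 5 phagocyte subunits kept their rise and their call against sham under each of 23 alternatives in both regions, 12 of which leave out 1 library. Their log2 changes ran from 0.68 (Rac2) to 1.38 (Ncf1) in the cortex and from 0.88 (Rac2) to 1.74 (Ncf1) in the thalamus. The rat as block, possible only for comparisons of the regions of the same rats, changed no call of a subunit (interaction of Ncf1 0.39, limma adjusted p = 0.0982), and 1301 loci were called for the interaction against 1138 without it. edgeR's quasi-likelihood test called 4533 loci (cortex) and 5481 loci (thalamus).

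Leaving out the 4 rats with choroid plexus transcripts lowered the called loci to 1501 in the cortex and to 348 for the interaction, with fewer rats in the fit. It took Rac2 between sham regions to 0.29, no longer past the threshold, and turned Cybb between TBI regions, which was near 0, to 0.0032. edgeR gave 0.0042 and, with no filter, 0.0041 for that Cybb value, and TMM scaling turned Cyba between sham regions to 0.0033, none of them past the threshold. With the median over the microglial markers Cybb was 0.42 in the cortex and 0.63 in the thalamus and Rac2 was 0.34 in the cortex, all then past the threshold. The cause was not tested.

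Leaving out 1 library at a time gave 0.49 to 0.70 for the interaction of Ncf4, past the threshold at the upper end. It gave -0.097 to 0.055 for Cyba between sham regions and -0.13 to 0.10 for Cybb between TBI regions, neither past the threshold. For Rac2 relative to the markers it gave 0.13 to 0.20 in the cortex and -0.044 to 0.070 in the thalamus. Of 624 values with 1 library left out, 611 were counted as unchanged, as were 394 of 411 under other alternatives. For a tested value this means the same direction and side of the threshold. For a total of called loci it means a similar number. For Nox4, under the minimum for a test, it means a shift smaller than its spread within groups. The direction of Nox4 could therefore change, as in the thalamus (-0.25 to 0.47 for TBI against sham with 1 library left out).

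Depth limits Nox4: with a pseudocount of 0.1 its log2 difference was 2.12 in the cortex, -1.97 for the interaction and 3.56 between sham regions, with a pseudocount of 5 the last was 0.58, and edgeR with no filter gave 2.30, -2.19 and 3.42, of which the last passed the threshold (edgeR adjusted p = 0.00422).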
